A study of Arabidopsis thaliana with 18 samples.

Results

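A brown seaweed sub-fraction given after salt had a different effect on some Arabidopsis thaliana leaf genes on day 1 than on day 5, and those genes are described here. For each probe set, the difference between plants given the ethyl acetate sub-fraction of Ascophyllum nodosum (EAA) and plants given salt alone was taken on each day. The day 1 difference was then subtracted from the day 5 difference, and the result is called the change in the EAA effect. It used 12 of the 18 arrays of the series, 3 in each of 4 groups. Of 13648 probe sets tested, 57 passed an adjusted p under 0.05 in limma (0.418%).

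The 4 groups were EAA with NaCl on day 1, NaCl alone on day 1, EAA with NaCl on day 5 and NaCl alone on day 5. Per the labels, all were leaves of 2-week-old plants first held in 150 mM NaCl for 24 hours, so by these protocols salt is common to every group. EAA plants then received the sub-fraction, and NaCl plants received 0.1% aqueous methanol. The remaining 6 arrays, from plants given the methanol extract of the alga (MEA), were left out of the fit. The labels name no ecotype and no dose of the extract.

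Not all labels of the 6 NaCl arrays match. By source name they received NaCl and no extract, whereas title and description name EAA. Here they are taken as NaCl by source name, and the meaning of every EAA effect depends on that choice. If their titles hold instead, those plants received EAA, salt cannot be taken as common to all 4 groups, and the same subtraction would not measure EAA against salt alone. Arrays of a group are titled biological replicates without stating whether plants were raised separately, so p-values measure the spread between these samples as labelled.

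Ascophyllum nodosum is an intertidal brown alga whose extracts are sold as biostimulants, preparations that alter plant growth or stress tolerance without being fertilisers. Salinity limits water uptake and loads leaves with sodium and chloride. Leaves under salt commonly adjust sugar transport, make protective late embryogenesis abundant (LEA) proteins under abscisic acid (ABA), and make flavonoids.

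On the first principal component, which held 74.4% of the variance, the arrays separated by day. On the second, with 9.78%, NaCl day 5 array 2 lay at 43.6 and EAA day 5 array 1 at -38.7, while the other 10 arrays lay between -11.8 and 8.1. EAA day 5 array 1 also had a 3' minus 5' signal difference of 2.78 on the log2 scale for an actin control, against 1.61 to 2.03 on the other arrays, a measure that moves with RNA quality. For 2 GAPDH controls it had 2.24 and 0.789, against at most 1.31 and 0.498 on the others. A second actin control did not single it out (4.12, others 3.37 to 4.43). Both arrays that stood apart belong to day 5 groups, and the main counts and list medians are also given without them. Correlations between arrays of a group, across probe sets, were 0.991 to 0.992 for EAA and 0.986 to 0.992 for NaCl on day 1, and 0.957 to 0.984 for EAA and 0.96 to 0.986 for NaCl on day 5. In bulk leaf RNA, fewer cells of a type and less RNA per cell cannot be told apart. Of 8 leaf markers only RCA, Rubisco activase, had a tested probe set. RCA averaged 13.53 ± 0.04 with EAA and 13.34 ± 0.03 with NaCl on day 1, and 13.79 ± 0.12 with EAA and 13.89 ± 0.11 with NaCl on day 5 (log2 signal, SD, n = 3 each). No root, flower or seed marker had a tested probe set.

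The changes in the EAA effect ran mostly downward. Among the 57 probe sets, 37 had a lower EAA effect on day 5 than on day 1 (0.271% of those tested) and 20 had a higher one (0.147%). The change reached 1 on the log2 scale, a doubling or halving of the ratio, in 49 of the 57. Only 24 probe sets paired with 1 gene in the annotation, 3 of them with a gene symbol and 21 with a locus code alone, and the other 33 are unnamed here. Without EAA day 5 array 1 and NaCl day 5 array 2, 204 probe sets passed, 145 with a lower EAA effect on day 5 and 59 with a higher one. An unadjusted p under 0.05 was reached by 1395 probe sets (10.2%), where 682 would be expected by chance. In a limma fit of all 18 arrays, with the MEA arrays in the variance, 656 reached it.

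The 57 fell into 3 patterns, read from the sign and the unadjusted p of the EAA effect on each day. In 25 the effect turned (0.183% of those tested), with opposite signs and an unadjusted p under 0.05 on both days. In 13 it faded (0.0953%), with a p under 0.05 on day 1 alone, and in 19 it arose (0.139%), with a p under 0.05 on day 5 alone. Of the 38 that turned or faded, 32 had a higher signal with EAA than with NaCl on day 1 and lost or reversed that difference by day 5. Of the 19 that arose, 14 were higher with EAA on day 5. Several of these 14, AT5G66780 and AT4G12580 among them, had low signal in the other groups. They passed the filter on low values through their EAA day 5 signal. A low probe set that fell with EAA on day 5 could not enter in this way. The filter thus favours the upward direction, and the split is no evidence that effects arose mostly upward. Without the pair of arrays that stood apart, 141 turned or faded. These patterns describe probe sets chosen for their change and carry no test of their own. The p-values that sort them rest on 1 variance per probe set shared by both days.

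**Figure D1:**
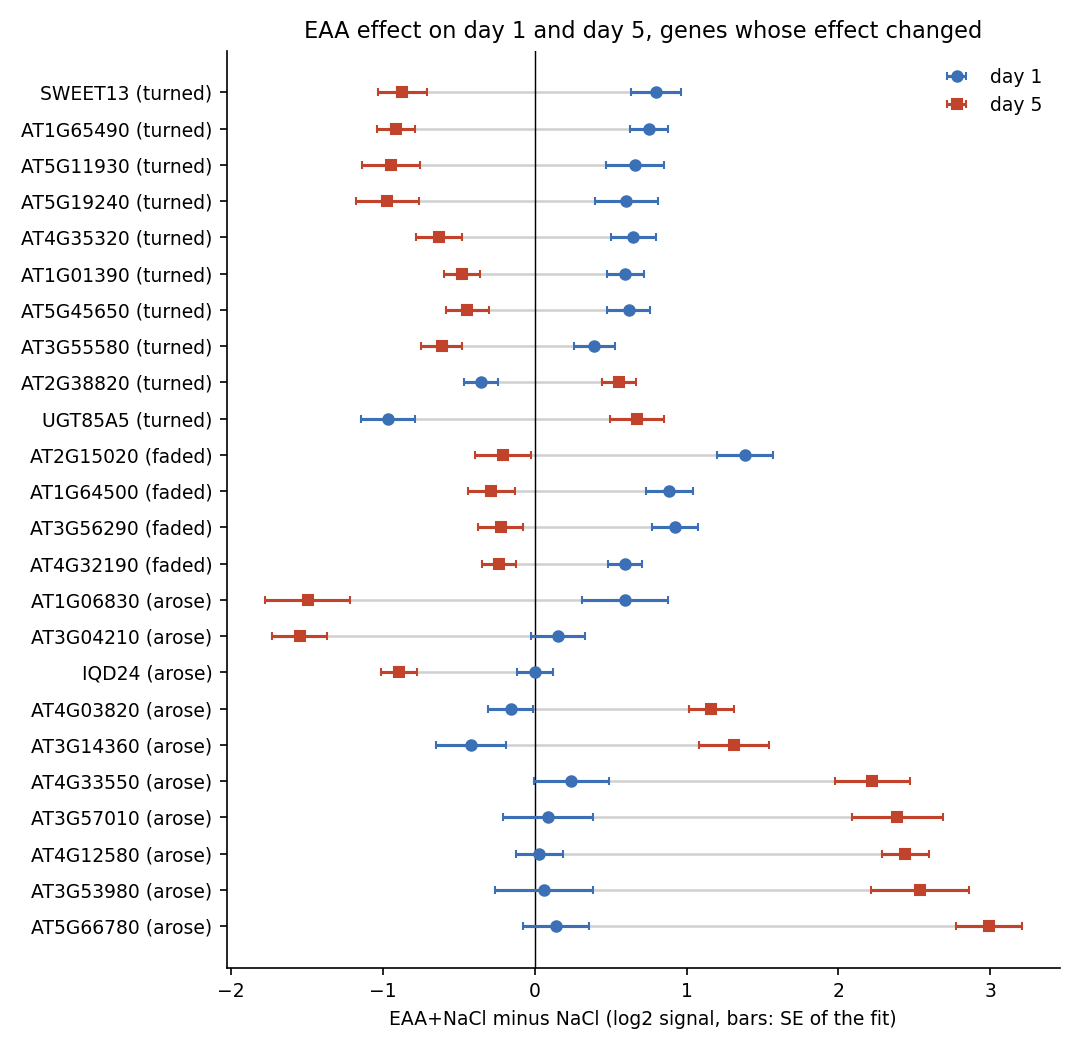
EAA minus NaCl difference in log2 signal (x axis) for the 24 changed probe sets that paired with 1 gene (rows), on day 1 and day 5; points are differences of means of 3 arrays and bars are standard errors of the limma fit. SWEET13 lay at 0.80 on day 1 and -0.87 on day 5, while AT5G66780 lay at 0.14 on day 1 and 2.99 on day 5.

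AT1G65490, which has a locus code only, turned from higher to lower with EAA. On day 1 its log2 signal was 9.25, 9.24 and 9.45 with EAA, against 8.41, 8.72 and 8.56 with NaCl. By day 5 the signal was 10.59, 10.83 and 10.73 with EAA, against 11.47, 11.65 and 11.76 with NaCl. All 3 EAA arrays lay above the NaCl arrays on day 1 and all 3 lay below them on day 5, although both groups were higher on day 5 than on day 1. The EAA effect was 0.75 on day 1 and -0.91 on day 5, a change of -1.66 (SE 0.18, adjusted p = 0.00247). Taken by itself, day 1 had 19 probe sets past the adjusted threshold (0.139%), 14 higher with EAA (0.103%) and 5 lower (0.0366%). Day 5 had 111 (0.813%), 68 higher with EAA (0.498%) and 43 lower (0.315%). Without EAA day 5 array 1 and NaCl day 5 array 2 the counts were 83 on day 1 and 194 on day 5. The fit used 1 variance per probe set for both days. The median SD within a group was 0.126 with EAA and 0.134 with NaCl on day 1, and 0.202 and 0.183 on day 5. Array weights estimated within each day gave 124 on day 1 and 37 on day 5, so these counts do not rank the days. In the main fit of all 12 arrays, AT1G65490 was the only probe set past the adjusted threshold on both days. It also passed for the change whichever array was left out.

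SWEET13 (AT5G50800), which encodes a sucrose exporter of the SWEET family, turned in the same direction. Its log2 signal on day 1 was 8.17, 8.36 and 7.70 with EAA, against 7.38, 7.22 and 7.24 with NaCl. On day 5 it was 7.43, 7.77 and 7.58 with EAA, against 8.29, 8.48 and 8.62 with NaCl. The groups did not overlap on either day. The EAA effect was 0.80 on day 1 (adjusted p = 0.131) and -0.87 on day 5 (adjusted p = 0.0317), and its change was -1.67 (SE 0.23, adjusted p = 0.0121). The EAA mean was 8.08 on day 1 and 7.59 on day 5, and the NaCl mean was 7.28 on day 1 and 8.46 on day 5. The change kept its call in 11 of the 12 fits that left out 1 array, and had an adjusted p of 0.0569 without EAA day 1 array 1.

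UGT85A5 (AT1G22370), a UDP-glycosyltransferase of the family that attaches sugars to small molecules, turned the other way. On day 1 its log2 signal was 5.46, 6.06 and 5.65 with EAA, against 6.68, 6.89 and 6.50 with NaCl. By day 5 the signal was 6.91, 6.89 and 6.44 with EAA, against 6.03, 6.03 and 6.16 with NaCl. All EAA arrays lay below the NaCl arrays on day 1 and above them on day 5. The EAA effect was -0.97 on day 1 and 0.67 on day 5, with adjusted p-values of 0.0728 and 0.111, and its change was 1.64 (SE 0.25, adjusted p = 0.0203). The call held in 6 of 12 fits that left out 1 array, with an adjusted p of 0.0766 without NaCl day 1 array 1, 0.0527 without NaCl day 1 array 2, 0.053 without NaCl day 5 array 3, 0.0694 without EAA day 1 array 1, 0.0817 without EAA day 1 array 3 and 0.0534 without EAA day 5 array 2.

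**Figure D2:**
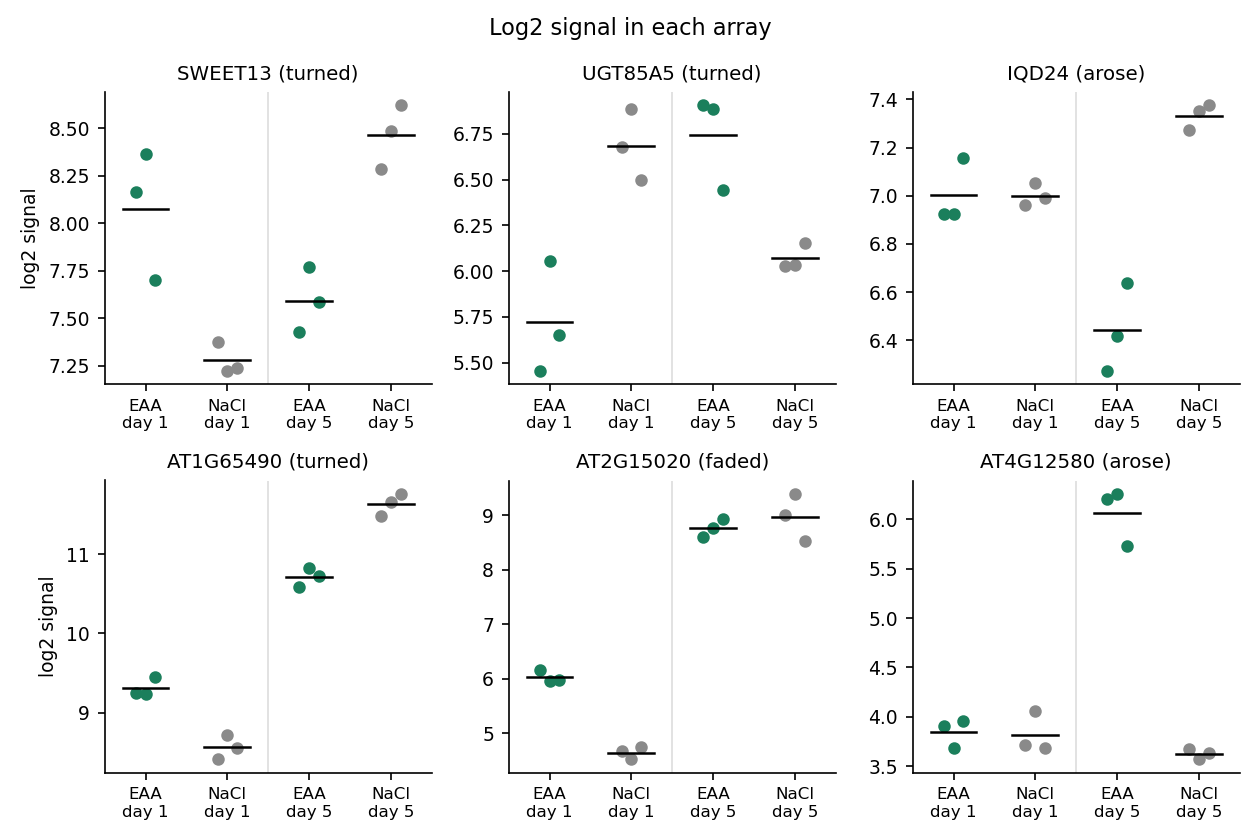
Log2 signal (y axis) on each of the 12 arrays for 6 genes, 1 panel each, with EAA left of NaCl within each day; each point is 1 array and each line is the mean of 3. For SWEET13 the 3 EAA arrays lie above the NaCl arrays on day 1 and below them on day 5.

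Besides SWEET13 and AT1G65490, 6 genes turned downward. Their changes were -1.61 for AT5G11930, -1.57 for AT5G19240, -1.28 for AT4G35320, -1.08 for AT1G01390, -1.06 for AT5G45650 and -1.01 for AT3G55580. AT2G38820 was the only other gene to turn upward. Its EAA effect was -0.35 on day 1 and 0.55 on day 5 (change 0.91, SE 0.15, adjusted p = 0.0319). Each of these 7 was called in at most 4 of the 12 fits that left out 1 array.

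Over all 21 probe sets that turned downward, 13 of them unnamed here, the EAA effect ran from 0.39 to 1.21 on day 1 and from -1.41 to -0.37 on day 5. In 19 of the 21 the mean NaCl signal was higher on day 5 than on day 1. A rise in NaCl lowers the change by its definition, so choosing negative changes favours this. The share over all probe sets was not counted. EAA and NaCl arrays were separate on both days in all 25 that turned, up or down. This follows in part from the choice of probe sets. Over all 13648 probe sets, separation in opposite directions on the 2 days occurred in 201 (1.47%) and in the same direction in 206 (1.51%). On the single days, 1 of the 25 passed the adjusted threshold on both, 3 on day 1 alone, 4 on day 5 alone and 17 on neither. The call concerns the change between the days.

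AT2G15020, a locus code gene, had an effect that faded. Its log2 signal on day 1 was 6.16, 5.96 and 5.98 with EAA, against 4.68, 4.52 and 4.75 with NaCl. On day 5 it was 8.60, 8.76 and 8.94 with EAA, against 9.0, 9.40 and 8.53 with NaCl. The groups were separate on day 1 and overlapped on day 5, when both were far higher. The EAA effect was 1.38 on day 1 (adjusted p = 0.0117) and -0.21 on day 5 (adjusted p = 0.654), a change of -1.59 (SE 0.26, adjusted p = 0.0299). It was called in 4 of the 12 fits that left out 1 array. A larger fading effect belonged to a probe set unnamed here, at 1.84 on day 1 and -0.29 on day 5 (change -2.14, SE 0.24, adjusted p = 0.00275), which was called in all 12 of those fits.

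The other 3 genes that faded were also lower in their day 5 effect. AT3G56290 had an EAA effect of 0.92 on day 1 and -0.22 on day 5 (change -1.15, SE 0.21, adjusted p = 0.0481). AT1G64500 changed by -1.17 and AT4G32190 by -0.83, and these 3 were called in 0 to 2 of the 12 fits that left out 1 array. All 11 probe sets that faded downward had a higher mean NaCl signal on day 5 than on day 1, which choosing negative changes again favours. Their EAA effects ran from 0.60 to 1.84 on day 1 and from -0.35 to -0.14 on day 5. The EAA arrays lay wholly below the NaCl arrays on day 5 in 6 of these 11, which choosing negative changes also favours. Over all probe sets tested, the arrays were separate on day 5, in either direction, in 13.9%. The 2 that faded upward are unnamed here and had EAA effects of -2.03 and -1.65 on day 1.

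**Figure D3:**
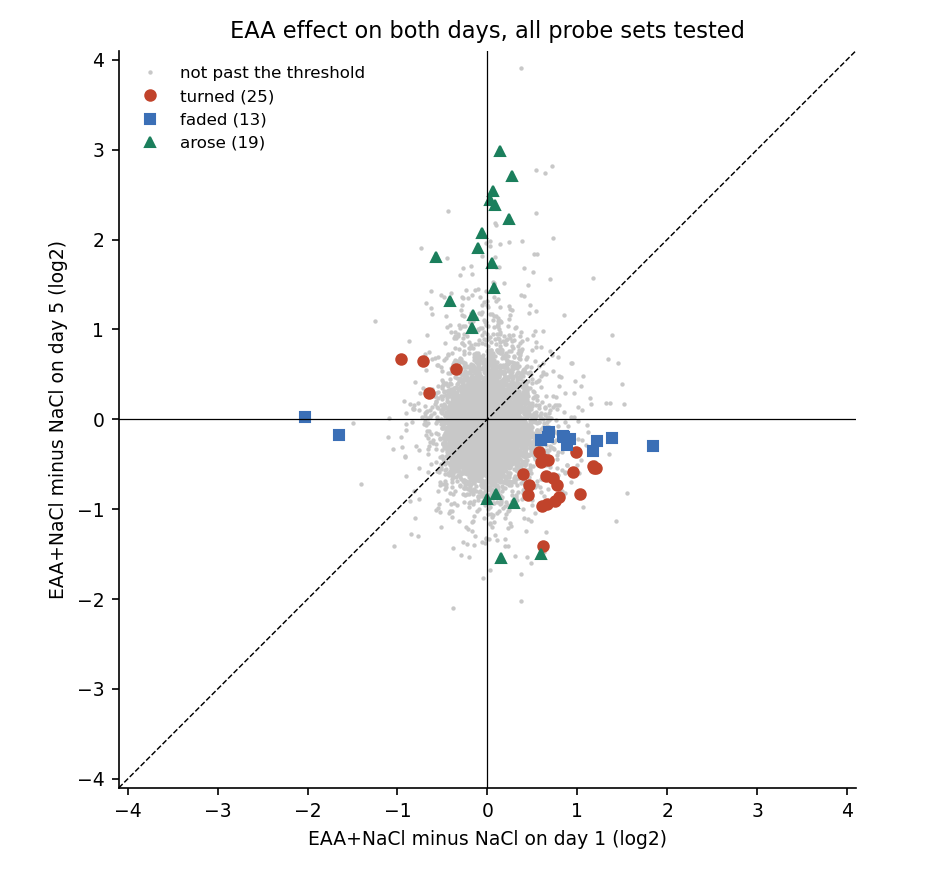
EAA minus NaCl difference in log2 signal on day 1 (x axis) and on day 5 (y axis) for the 13648 probe sets tested (grey), with the 57 changed probe sets coloured by pattern and a dashed line where both days are equal. The 21 that turned downward lie right of 0 on day 1 and below 0 on day 5.

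Effects that arose by day 5 included the largest changes. AT5G66780 had log2 signals on day 1 of 3.28, 3.3 and 3.52 with EAA, against 2.80, 3.66 and 3.23 with NaCl. Day 5 signals were 6.78, 6.44 and 6.32 with EAA, against 3.90, 3.39 and 3.27 with NaCl. The groups overlapped on day 1, and on day 5 every EAA array lay well above the NaCl arrays. The change was 2.85 (SE 0.31, adjusted p = 0.00247). In 3 of the 4 groups its mean lay under the filter on low values, 4.007, where order is uncertain, so it entered the test through its EAA day 5 signal. In a fit of all 22746 probe sets, with no filter, its adjusted p was 0.00141. With values under 4 set to 4 the change was 2.51. The gene fell under the filter and was not tested in 3 of the 12 fits that left out 1 array.

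AT4G12580 behaved in a like way, with day 1 signals of 3.91, 3.68 and 3.95 with EAA, against 3.71, 4.06 and 3.69 with NaCl. On day 5 it had 6.2, 6.26 and 5.73 with EAA, against 3.68, 3.57 and 3.63 with NaCl. The means of all groups but EAA day 5 lay under the filter, so this gene too entered the test through its EAA day 5 signal. The groups overlapped on day 1 alone. The EAA effect was 0.03 on day 1 and 2.44 on day 5 (change 2.41, SE 0.22, adjusted p = 0.00118), or 2.08 with values under 4 set to 4. With no filter its adjusted p was 0.000839.

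AT3G53980 showed the same pattern at a much higher signal. On day 1 it had 8.19, 8.51 and 7.98 with EAA, against 8.26, 7.78 and 8.44 with NaCl. Day 5 signals were 9.68, 10.58 and 10.04 with EAA, against 8.35, 6.97 and 7.36 with NaCl. The groups overlapped on day 1 and were separate on day 5. The change was 2.47 (SE 0.46, adjusted p = 0.0492), and 1 of the 12 fits that left out 1 array called it. The other upward genes of this pattern changed by 2.30 (AT3G57010), 1.98 (AT4G33550), 1.73 (AT3G14360) and 1.32 (AT4G03820). For AT3G14360 the EAA arrays already lay below the NaCl arrays on day 1 (EAA effect -0.42, unadjusted p = 0.0973 in limma).

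Downward, IQD24 (AT5G07240), of the IQ-domain family of calmodulin-binding proteins, had an EAA effect of 0.00 on day 1. Its log2 signal was then 6.92, 6.93 and 7.16 with EAA, against 6.96, 7.05 and 6.99 with NaCl. By day 5 the signal was 6.27, 6.42 and 6.64 with EAA, against 7.27, 7.35 and 7.38 with NaCl. The arrays overlapped on day 1, and on day 5 all 3 EAA arrays lay below the NaCl arrays. The EAA effect was -0.89 on day 5 (adjusted p = 0.00579) and the change was -0.89 (SE 0.17, adjusted p = 0.0492). That call held in 2 of 12 fits that left out 1 array, with an adjusted p of 0.075 without NaCl day 5 array 2 and 0.166 without EAA day 1 array 3.

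Among the other genes with a lower effect arising on day 5, AT3G04210 had day 1 signals of 8.75, 8.61 and 8.96 with EAA, against 8.69, 8.58 and 8.59 with NaCl. On day 5 it had 5.22, 5.21 and 4.9 with EAA, against 6.21, 6.79 and 6.97 with NaCl. Both groups were lower on day 5, and the EAA arrays were lower still (change -1.70, SE 0.25, adjusted p = 0.0191). AT1G06830 changed by -2.09 (SE 0.40, adjusted p = 0.0492) and was called in 1 of 12 fits that left out 1 array. Its EAA effect was 0.60 on day 1 (unadjusted p = 0.056 in limma) and -1.49 on day 5, so it narrowly missed the turned pattern.

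Genes of known pathways were read from lists of sugar, stress, pigment, hormone and cell wall genes. Only SWEET13 among all tested list members passed for the change. Of the 19 genes of the sugar transport list 9 had a tested probe set, with 1 called, a median change of 0.24 and 5 positive changes, beside a median of -0.02 over all probe sets. Its members differed widely. SAG29, a SWEET family member also known as a senescence-associated gene, had a change of 2.1 (adjusted p = 0.277), and SWEET4, a hexose transporter, one of 1.55 (adjusted p = 0.241). SWEET11, a sucrose exporter that acts in phloem loading, had a change of -0.75 (adjusted p = 0.291). The tonoplast sugar transporters TMT1 and TMT2 had changes of -0.53 and 0.24.

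The list of ABA, dehydration and LEA genes had positive changes in all 10 members tested, of 42 listed, and none passed. Their median change was 0.99, and 6 had an unadjusted p under 0.05, which 10.2% of all probe sets tested also had. LEA4-5, a LEA protein, averaged 6.31 ± 0.17 with EAA and 5.66 ± 0.56 with NaCl on day 1, and 10.33 ± 0.36 with EAA and 7.59 ± 1.5 with NaCl on day 5 (SD, n = 3 each). Its change was 2.1 (adjusted p = 0.352). ALDH7B4, an aldehyde dehydrogenase, and HIS1-3, a drought-inducible linker histone, had changes of 1.2 and 1.16 (adjusted p = 0.177 and 0.181). The cold-regulated genes COR15A, COR15B and COR47 had changes of 0.42, 0.16 and 0.18. The median of the list was 0.56 without EAA day 5 array 1, and 0.61, with 8 of 10 positive, without both that array and NaCl day 5 array 2.

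The flavonoid and anthocyanin list showed the opposite sign in all 7 members tested, of 26 listed, with a median change of -0.90 and none past the threshold. CHIL, a chalcone isomerase-like protein, had a change of -1.14 (adjusted p = 0.354). DFR, dihydroflavonol reductase, averaged 8.96 ± 0.64 with EAA and 7.46 ± 0.95 with NaCl on day 1, and 8.36 ± 1.15 with EAA and 7.96 ± 1.32 with NaCl on day 5 (SD, n = 3 each). The flavonoid glycosyltransferases UGT78D1 and UGT78D2 had changes of -0.92 and -0.90 (adjusted p = 0.248 and 0.268). DFR had a change of -1.10 (SE 0.98, adjusted p = 0.761). Its EAA and NaCl arrays were separate on day 1, as in 18.6% of all probe sets tested, and overlapped on day 5. The median of the list was -1.28 without EAA day 5 array 1 and NaCl day 5 array 2. It was -0.56 without NaCl day 1 array 1, -0.41 without NaCl day 5 array 1 and -0.54 without EAA day 5 array 3. Earlier results of these samples were known when these lists were written, so their signs are no independent evidence.

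**Figure D4:**
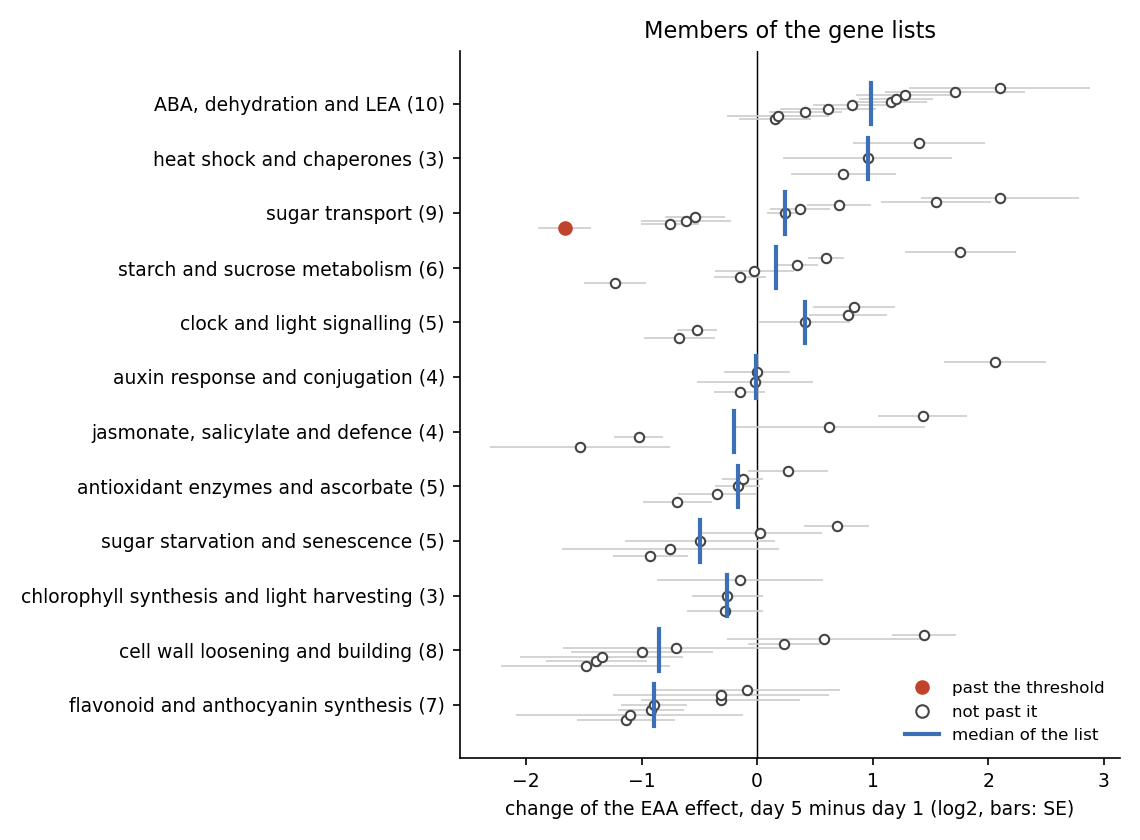
Change in the EAA effect, day 5 minus day 1 (x axis, log2), for the tested members of each gene list (rows); each point is 1 gene with the standard error of the fit as a grey bar, and each upright blue line is the median of its list. All 10 ABA, dehydration and LEA genes lie above 0 and all 7 flavonoid genes below it, and only SWEET13 passed the threshold.

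Starch and sucrose genes had a median change of 0.16 over 6 members tested of 32, with 3 positive and none called. APL4, a large subunit of the enzyme that makes ADP-glucose for starch, had a change of 1.76 (adjusted p = 0.182). PWD, a kinase that phosphorylates starch for breakdown, had one of 0.60 (adjusted p = 0.16). ATSPS4F, a sucrose phosphate synthase, averaged 8.27 ± 0.12 with EAA and 7.57 ± 0.26 with NaCl on day 1, and 8.51 ± 0.23 with EAA and 9.05 ± 0.36 with NaCl on day 5 (SD, n = 3 each). Its change was -1.23 (SE 0.27, adjusted p = 0.0848).

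No hormone or wall gene of the lists passed, and their adjusted p-values ran from 0.0518 (EXLB1) to 0.998 (IAA29). EXLB1, of the expansin-like family related to wall-loosening proteins, averaged 7.10 ± 0.28 with EAA and 7.11 ± 0.12 with NaCl on day 1, and 8.91 ± 0.38 with EAA and 7.48 ± 0.23 with NaCl on day 5 (SD, n = 3 each). Its change was 1.44 (SE 0.28, adjusted p = 0.0518), the second value outside a threshold whose last member had 0.0494. JMT, which methylates jasmonic acid, had an EAA effect of 0.68 on day 1 and -0.34 on day 5 (change -1.03, SE 0.21, adjusted p = 0.0762). GH3.3, which conjugates auxin to amino acids, had an effect of -0.63 on day 1 and 1.43 on day 5 (change 2.06, SE 0.44, adjusted p = 0.0847). Of the cell wall list 8 of 20 were tested, with a median change of -0.85 and 3 positive. That median was -0.35 without EAA day 5 array 1 and -0.46 without both arrays that stood apart. Of the defence list 4 of 27 and of the auxin list 4 of 16 were tested, with medians of -0.20 and -0.01. Leaving out single arrays moved the defence median between -0.60 (without NaCl day 5 array 2) and 0.12 (without NaCl day 5 array 1), and the auxin median between -0.04 and 0.13.

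The remaining lists had few tested members and no call. The senescence and sugar starvation list had a median change of -0.49 over 5 of 24 members, clock and light signalling 0.41 over 5 of 26, antioxidants -0.17 over 5 of 21, heat shock 0.96 over 3 of 16 and chlorophyll synthesis and light harvesting -0.26 over 3 of 22. Without EAA day 5 array 1 and NaCl day 5 array 2, the clock median was -0.20 and the chlorophyll median 0.22, both of the other sign, the heat shock median 0.15 and the senescence median -1.29. With single arrays left out, the senescence median ran from -1.0 to 0.06 (0.06 without NaCl day 5 array 3), heat shock from 0.34 (without NaCl day 5 array 2) to 1.54 (without EAA day 5 array 2), clock from 0.06 (without EAA day 5 array 1) to 0.62 and chlorophyll from -0.42 to 0.05 (0.05 without EAA day 5 array 1). The medians of these small lists therefore depended on single arrays. No member of the ion transport list (19 genes) or the nitrogen list (7 genes) was tested.

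The MEA day 5 arrays were not in the fit, and their signals were set beside the day 5 means of EAA and NaCl as a description. They stood far apart from each other. MEA array 2 was nearer to the EAA mean than to the NaCl mean in all 19 probe sets whose effect arose, MEA array 1 in 1 of 19 and MEA array 3 in 1 of 19. Of the 25 that turned, array 2 was nearer to EAA in 22, array 1 in 17 and array 3 in 16. An array that lay beyond the EAA mean, away from NaCl, also counted as nearer to EAA. Over the 1902 probe sets whose EAA and NaCl arrays were separate on day 5, the shares were 77.2% for array 2, 46.6% for array 1 and 43.7% for array 3. AT4G12580, for example, had log2 signals of 3.57, 6.74 and 3.31 on MEA arrays 1, 2 and 3. AT3G53980 had 4.81, 10.97 and 6.33 on the same arrays. AT1G65490 had 10.44, 9.94 and 9.77, all 3 below both the NaCl arrays and the EAA arrays of that day.

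**Figure D5:**
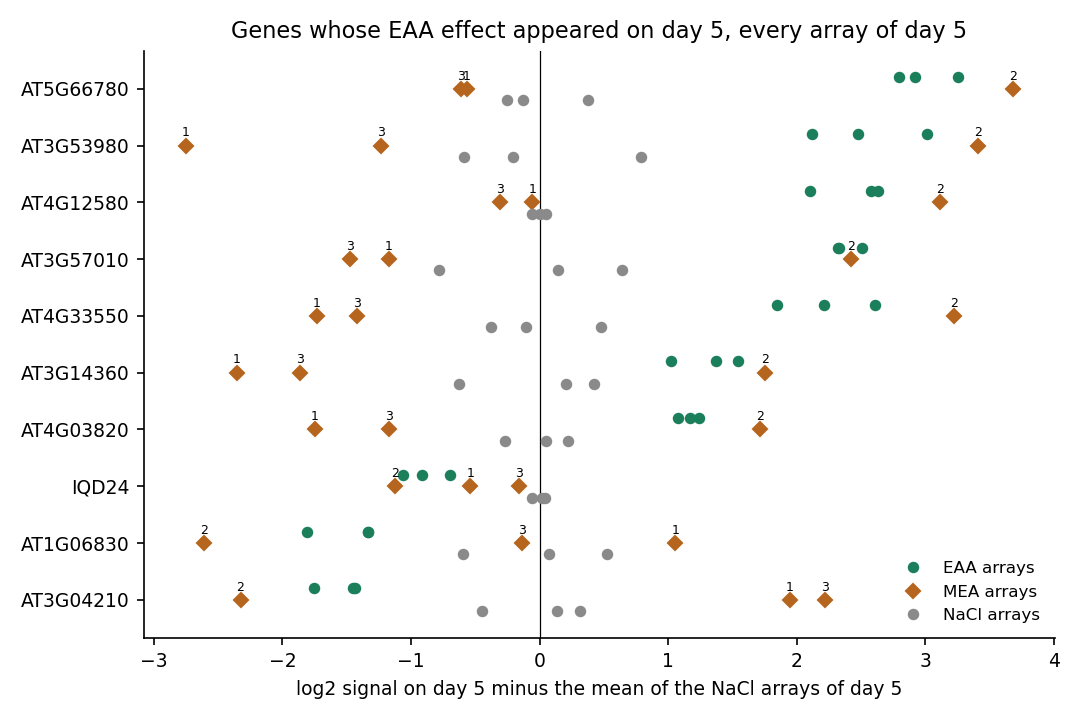
Log2 signal on each day 5 array minus the mean of the NaCl day 5 arrays (x axis) for the 10 genes whose EAA effect arose by day 5 (rows); circles are EAA and NaCl arrays and diamonds are MEA arrays, marked with their array number. For AT4G12580, MEA array 2 (6.74) lies beside the EAA arrays, and MEA arrays 1 (3.57) and 3 (3.31) lie beside the NaCl arrays.

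The number of probe sets called depended on single arrays. Leaving out 1 array gave 11 (EAA day 1 array 3) to 122 (NaCl day 5 array 1) calls. In all 12 such fits 8 of the 57 were called, AT1G65490 among them. The low-signal AT4G12580 and an unnamed low-signal probe set whose effect arose also belonged to the 8. Both passed the filter through their EAA day 5 signal, so those calls lend them no support. All 57 kept their direction under every alternative in which they were tested. Of the 57, 55 passed when both arrays that stood apart, EAA day 5 array 1 and NaCl day 5 array 2, were left out. That pair was chosen after the data were seen, and 204 probe sets passed in that fit, so keeping most of the 57 is a weak check.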

How the data were processed

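Biotin-labelled material from total leaf RNA (10 µg each) was hybridised to Affymetrix arrays, 1 per sample. The authors deposited log2 signals, as judged from their range. MAS5 is the tool in the submitters' processing notes. No version, scaling or log transformation is stated there. Because low signals differ from typical MAS5 values, the summary method is uncertain. Values were used as deposited, and the number of arrays limits the precision.

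Of 22810 probe sets 64 controls were removed. Those with a mean over the 12 arrays at or above the 40th percentile (4.007) were kept, which left 13648. Names were taken from the platform's annotation table and brought up to date with RefSeq (TAIR10.1); 13513 probe sets had 1 gene, 503 several, and 8794 are unnamed here. Of several probe sets for a gene, the brightest stood for it.

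Group means were estimated in limma 3.58.1 under R 4.3.3, using lmFit and eBayes with an intensity trend. There were 8 residual and 4.21 prior degrees of freedom. The MEA arrays were left out, so their spread does not enter the variance. Benjamini-Hochberg adjustment covered the 13648, with a threshold of 0.05. Patterns used an unadjusted p of 0.05 on each day. Figures used Python 3.11.15, pandas 2.3.3 and matplotlib 3.10.9.

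Named genes were the 10 largest changes in each direction among called probe sets with a symbol, the 3 largest with a locus code, up to 6 that turned or faded with a symbol, and 2 members of each list by adjusted p. All other genes were named after their values were seen. The genes and lists were chosen with earlier results of these data known. On simulated data for the change (13648 probe sets, 200 changed) the fit recovered 56% of changes of 1, 74% of 1.5, 84% of 2 and 94% of 3, with 16 false among 170 calls. The simulated noise was normal and independent for each probe set and array. No simulated array stood apart as in the real data, so these rates may not hold for them.

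Samples were grouped by source name. Replicate numbers are common to the groups. Over 18 pairs of same-numbered arrays the correlation of deviations from group means ran from -0.441 to 0.434 (median -0.0475). On that basis the main fit used no block. Between EAA and NaCl arrays of the same day, same-numbered pairs had 0.145, 0.164 and 0.0996 on day 1. On day 5 they had 0.434, 0.316 and -0.346. Differently numbered pairs ran from -0.128 to 0.00427 on day 1 and from -0.556 to 0.445 on day 5. Whether arrays were paired within a day was not settled. Alternatives covered the arrays in the fit, the filter, the scaling, the trend, array weights, a floor, the replicate block and each array left out.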

Additional observations from a re-analysis of the deposited data

Results flagged for a closer look

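The EAA effect differed between day 1 and day 5, by the interaction term of the limma fit, in 57 probe sets. The 24 of them that paired with 1 gene are given with their change on the log2 scale, day 5 minus day 1, where a negative value is a lower EAA effect on day 5. Among genes with a symbol the change was -1.67 for SWEET13, -0.89 for IQD24 and 1.64 for UGT85A5. Among locus codes with an effect that turned it was -1.66 for AT1G65490, -1.61 for AT5G11930, -1.57 for AT5G19240, -1.28 for AT4G35320, -1.08 for AT1G01390, -1.06 for AT5G45650, -1.01 for AT3G55580 and 0.91 for AT2G38820. Where the effect faded it was -1.59 for AT2G15020, -1.17 for AT1G64500, -1.15 for AT3G56290 and -0.83 for AT4G32190. Where it arose it was -2.09 for AT1G06830, -1.70 for AT3G04210, 1.32 for AT4G03820, 1.73 for AT3G14360, 1.98 for AT4G33550, 2.30 for AT3G57010, 2.41 for AT4G12580, 2.47 for AT3G53980 and 2.85 for AT5G66780.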

How the results depend on the processing

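Counts of probe sets called are given for the change in the EAA effect (57), for EAA against NaCl on day 1 (19) and on day 5 (111), and for the turned or faded probe sets (38). A fit of 15 arrays, with the MEA day 1 group, gave 98 for the change, 219 for day 5 and 63 turned or faded. A limma fit of all 18 arrays gave 1, 3, 0 and 1. In that fit 656 probe sets had an unadjusted p under 0.05 for the change, 438 for day 1 and 1032 for day 5. By chance 682 would be expected for each, so the change showed no excess there. The filter at the 60th percentile gave 35 for the change and 73 for day 5. Array weights estimated within each day gave 124 on day 1 and 37 on day 5. With the replicate number as a block, the change gave 21 calls (19 of the 57 among them) and 17 turned or faded; SWEET13 and UGT85A5 had adjusted p = 0.0267 and IQD24 0.0596. Whether the numbers pair arrays within a day is unknown, so the lower count with the block cannot be set aside. Without both EAA day 5 array 1 and NaCl day 5 array 2, an alternative chosen after seeing the data, counts were 204, 83, 194 and 141. Leaving out each array in turn gave 11 to 122 for the change, 5 to 25 for day 1, 25 to 464 for day 5 and 7 to 51 turned or faded.

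For the change, the count moved by over 1.5 times without EAA day 1 arrays 1, 2 or 3 (12, 19, 11), NaCl day 1 arrays 1, 2 or 3 (15, 14, 27), EAA day 5 arrays 1 or 2 (22, 23) and NaCl day 5 arrays 1 or 3 (122, 15). For day 1 it did so without EAA day 1 arrays 1, 2 or 3 (6, 8, 5) and NaCl day 1 arrays 1 or 2 (7, 5). For day 5 it did so without EAA day 1 arrays 1, 2 or 3 (56, 64, 64), NaCl day 1 arrays 1 or 3 (72, 58), EAA day 5 array 1 (48) and NaCl day 5 arrays 1, 2 or 3 (464, 49, 25). The cause was not tested. No called gene reversed. Over the alternatives its call held in 278 gene-by-setting combinations and was lost in 264, while 11 list genes outside the threshold passed in 17. With values under 4 set to 4, AT3G55580 had an adjusted p of 0.0684. Median-centring and quantile scaling moved the median change of all probe sets by under 0.1 (-0.0236 as deposited, 0.0031 and 0.00228). Both scalings and every other alternative run and not named here kept these counts within 1.5 times of those reported.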

Other observations

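Leaving out EAA day 5 array 1 and NaCl day 5 array 2 together, a choice made after seeing the data, gave 204 changed probe sets in limma, 59 of them positive and 145 negative. List genes that passed there and not with all 12 arrays were ASPGB1, an asparaginase, with a change of -2.28 (adjusted p = 0.00261), XTH19, a xyloglucan-modifying enzyme of the cell wall, with -1.71 (adjusted p = 0.0277), and ALN, allantoinase of purine breakdown, with -1.29 (adjusted p = 0.0227). SWEET4 had 1.26 (adjusted p = 0.0485) and EXLB1 1.34 (adjusted p = 0.045). With all 12 arrays the same genes had changes of -0.75 for ASPGB1, -1.0 for XTH19, -0.92 for ALN, 1.55 for SWEET4 and 1.44 for EXLB1, none past the threshold. Leaving out these arrays places 2 arrays in each day 5 group.

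The EAA effects of the 2 days showed little relation across the 13648 probe sets, with a Pearson r of -0.00738 and a Spearman rho of -0.0143. The day 1 and day 5 effects share no arrays, and probe sets are not independent replicates. The EAA and NaCl arrays were separate on day 1 in 2542 probe sets (18.6%) and on day 5 in 1902 (13.9%). EAA was higher on day 1 and lower on day 5, with both groups separate on both days, in 109 probe sets (0.799%), and lower on day 1 and higher on day 5 in 92 (0.674%).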
